A study of Mus musculus with 8 samples.

Results

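Regulators of the G1 phase of the cell cycle, 10 genes in all, were followed through 8 mouse fat libraries: the kinases Cdk4 and Cdk6, the D cyclins Ccnd1, Ccnd2 and Ccnd3, the inhibitors Cdkn1a, Cdkn1b, Cdkn1c and Cdkn2c, and the retinoblastoma gene Rb1. They were taken by symbol and chosen by their values in endostatin against control, per library and within each batch, in these same libraries. They make up 10 of 37046 features in the files and 10 of the 15184 genes with enough counts to test. All 10 passed the count filter. The values of endostatin against control, overall and compared between batches, are therefore a description. The batch contrast itself did not choose the genes, but it uses the same library values. Its p-values are thus not independent of that choice.

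The libraries came from female wild-type C57BL/6J mice given either phosphate-buffered saline (PBS, the control) or endostatin at 50 mg/kg through the tail vein, with fat taken 2 h later and food withheld in between. Endostatin is a fragment of collagen XVIII and blocks the growth of blood vessels. There were 4 control and 4 endostatin libraries, and replicates 1 and 2 of each group belonged to batch 1 and replicates 3 and 4 to batch 2. The sources used here do not say what a batch was. The labels call the tissue epididymal white adipose tissue although the mice were female, and they give no age. Which animal gave which library is not labelled, and the p-values below cover the spread among these libraries, part of which may be technical.

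Entry into S phase is gated in G1. D cyclins bind CDK4 and CDK6, and the active kinases phosphorylate the RB protein, which then releases E2F transcription factors. INK4 inhibitors such as p18 (Cdkn2c) bind the kinases directly, whereas the Cip/Kip proteins p21 (Cdkn1a), p27 (Cdkn1b) and p57 (Cdkn1c) bind cyclin and kinase together. In fat, whose mature adipocytes are largely non-dividing, these proteins also have roles outside the cell cycle. Cyclin D3 is a coactivator of PPARγ, CDK4 acts in insulin signalling, and CDK6 restrains beige fat formation through RUNX1.

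Library totals ranged from 15826783 to 23786594 estimated counts. The tissue label was checked against markers: the 10 adipocyte markers summed to between 56414 and 78083 TPM (read density per transcript length, with an equal total for every library) in 7 libraries and to 37804 in control 3. Control 3 and endostatin 4 stood apart from the rest. The 10 oviduct and uterus markers summed to 803 and 555 TPM in them against 22.7 to 63.8 TPM in the other libraries, and 4 of those markers (Foxj1, Ltf, Msx2, Wfdc2) were at 0 in at least 1 library. The 8 macrophage markers summed to 1788 and 1838 TPM in endostatin 3 and endostatin 4 against 824 to 1229 TPM elsewhere. Markers of liver and of skeletal muscle took opposite signs with treatment. All 9 hepatocyte markers had positive log2 fold changes with endostatin, with a median of 3.74 (1.85 within batch 1, 7.18 within batch 2) and 5 at an unadjusted p under 0.05, and all 7 skeletal muscle markers tested had negative ones, with a median of -2.98 and 2 at that p. None passed adjustment, and the fitted sizes depend on the prior count for the 4 hepatocyte markers (Apoa1, Fgb, Serpina1c, Ttr) that were at 0 in some libraries. Alb, the gene of albumin, had 88.6, 51.0, 10.0 and 18.3 TPM in controls 1 to 4 and 194, 257, 17.2 and 487 TPM in endostatin 1 to 4. The skeletal muscle markers summed to 219, 33.8, 43.1 and 432 TPM in controls 1 to 4. In endostatin 1 to 4 they summed to 49.7, 61.0, 59.0 and 106 TPM. The high sums were thus those of controls 1 and 4, while controls 2 and 3 lay below every endostatin library. The part of these markers in the treatment values below was not tested. In bulk tissue, fewer cells of a type and less RNA per cell cannot be told apart.

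Promoter windows of 250 bases before the start of the gene were matched in RefSeq (GRCm38.p6) for 6 genes, with none for Ccnd1, Ccnd2, Cdkn1c and Rb1. Those of both kinases and of Cdkn1a are shown because the treatment and batch values below turn on these 3 genes. The Cdk6 window lies at chr5:3343643-3343892, that of Cdk4 at chr10:127063285-127063534, and the downstream one of the 2 Cdkn1a windows at chr17:29093519-29093768, all on the plus strand. Capitals mark CACGTG, the E-box bound by MYC-family factors, and GGGCGG, the GC box, which reads CCGCCC on the other strand.
Cdk6: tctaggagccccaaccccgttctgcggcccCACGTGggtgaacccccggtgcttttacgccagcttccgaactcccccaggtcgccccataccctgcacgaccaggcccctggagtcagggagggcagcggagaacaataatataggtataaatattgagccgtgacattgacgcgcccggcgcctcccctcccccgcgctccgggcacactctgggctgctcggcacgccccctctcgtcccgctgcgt
Cdk4: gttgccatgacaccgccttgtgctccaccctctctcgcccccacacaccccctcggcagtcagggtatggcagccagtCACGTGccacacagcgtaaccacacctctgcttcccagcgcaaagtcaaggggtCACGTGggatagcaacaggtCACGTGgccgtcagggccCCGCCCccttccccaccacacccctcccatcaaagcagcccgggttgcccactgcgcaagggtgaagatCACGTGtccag
Cdkn1a: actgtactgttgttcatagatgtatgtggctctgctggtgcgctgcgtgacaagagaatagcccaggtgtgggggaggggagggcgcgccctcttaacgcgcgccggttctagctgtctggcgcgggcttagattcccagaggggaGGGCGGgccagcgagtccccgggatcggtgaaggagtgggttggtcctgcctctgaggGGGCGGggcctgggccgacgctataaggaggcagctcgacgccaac
CACGTG, which reads the same on both strands, occurred once in the Cdk6 window and at 4 places in the Cdk4 window, and in 6.02% of 32851 windows of that length. The Cdkn1a window held 2 GC boxes, a motif present on either strand in 32.7% of all windows. The GC content of the windows was 66.0% for Cdk6, 64.4% for Cdk4 and 64.8% for Cdkn1a, against a median of 52.4% over all windows. The upstream Cdkn1a window, not shown, had 54.0% and no GC box. A match is a description of these letters and not of binding.

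Ccnd2 was the most abundant of the 10 genes by TPM summed over transcripts, and Ccnd1 the least. Over all 8 libraries the mean level of Ccnd2 was 409 ± 79.2 TPM (SD, n = 8). Cdkn2c at 174 ± 51.6 TPM, Ccnd3 at 156 ± 19.3 TPM and Cdk4 at 121 ± 37.2 TPM (SD, n = 8) came next. The other 6 genes lay lower: Cdkn1c at 47.1 ± 10.2, Rb1 at 34.1 ± 6.61, Cdkn1b at 29.0 ± 5.47, Cdkn1a at 26.4 ± 12.7, Cdk6 at 18.7 ± 2.88 and Ccnd1 at 17.1 ± 6.72 TPM (SD, n = 8). Only at 2 steps of this order did neighbours not overlap in any library: Ccnd2 above Cdkn2c, and Cdk4 above Cdkn1c. The other 7 neighbouring pairs had overlapping ranges. By the transcript with the most reads, Cdk6 lay below Ccnd1. The means were 6.03 TPM for Cdk6-202 and 16.2 TPM for Ccnd1-201. Cdk4 also moved down by that measure. Cdk4-201 averaged 19.5 TPM, below Cdkn1c-201 at 26.1, Rb1-201 at 28.1 and Cdkn1b-201 at 20.7 TPM. Ccnd2-201 averaged 173 TPM and Cdkn2c-201 141 TPM. The ranges of Ccnd2 and Cdkn2c, and those of Cdk4 and Cdkn1c, then overlapped.

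The D cyclin pool kept its order in every library. Ccnd2 made up 65.0% to 74.4% of the summed D cyclin TPM, Ccnd3 made up 23.7% to 30.7%, and Ccnd1 made up 1.82% to 6.58%. The highest Ccnd1 share was that of control 3. Of the TPM of both kinases together, Cdk6 held 9.28% (endostatin 4) to 18.5% (control 1), so Cdk4 was the more abundant kinase transcript per length in every library. Among the 4 inhibitors, Cdkn2c held 54.0% to 72.2% of the TPM in 7 libraries and 33.7% in endostatin 4, where Cdkn1a held 22.9%.

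Across treatment, Cdk6 was lower with endostatin and by a similar amount in both batches. Cdk4, its close relative, differed by less than its standard error. No gene passed the adjusted threshold of 0.05 in edgeR's quasi-likelihood test with Benjamini-Hochberg adjustment: 0 of 10 regulators, and 0 of 15184 genes (0%). At an unadjusted p under 0.05 there were 485 genes (3.19%), of which 1 was a regulator, Cdk6, and DESeq2 called 4 genes, none of them a regulator. Because the genes were chosen with this contrast known, nothing is read from these counts. Among the 10 log2 fold changes, 6 were negative and 4 positive (median -0.08), beside 8107 negative and 7077 positive (median -0.01) over all genes tested.

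Cdk6 had 53.7 and 63.5 CPM (library-scaled read counts, adjusted by TMM factors and not divided by length) in controls 1 and 2 and 44.4 and 45.8 CPM in endostatin 1 and 2. In batch 2 it had 49.0 and 45.1 CPM in controls 3 and 4 and 35.6 and 38.1 CPM in endostatin 3 and 4. Both endostatin libraries thus lay below both controls within each batch, while the pooled groups overlapped, since endostatin 2 of batch 1 was just above control 4 of batch 2. The within-batch ordering was found for 1 of the 10 genes and for 292 of all genes tested (1.92%). The pooled groups overlapped for all 10 regulators, and did not for 1.64% of all genes tested. The group means were 52.8 ± 7.95 and 41.0 ± 4.93 CPM (SD, n = 4 each), and the fitted log2 fold change was -0.37 with a standard error of 0.08 and a 95% interval of -0.56 to -0.17, equal to 0.776 times the control level. Within batches it was -0.38 in batch 1 and -0.35 in batch 2. Without control 3 and endostatin 4 it was -0.37, so the difference was as large without the libraries that stood apart.

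The Cdk6 difference depended on how transcript lengths were treated. Summed TPM of the gene did not follow the CPM: it was 20.1, 22.4, 21.4 and 15.9 TPM in controls 1 to 4 and 19.2, 15.5, 20.4 and 15.0 TPM in endostatin 1 to 4. With the average transcript length of each library taken into the fit, the log2 fold change was -0.22 in place of -0.37. Cdk6 was then no longer among the genes at an unadjusted p under 0.05 in edgeR. Both are descriptions, because this contrast chose the genes. The transcript Cdk6-202, with 11525 bases, took 87.2% of the reads of the gene but 32.2% of its TPM. Much of the remaining TPM came from the short models Cdk6-203 (697 bases, 28.6%) and Cdk6-205 (425 bases, 22.2%), which rested on 9.76 to 46.4 and on 0 to 22.7 estimated reads per library. The long transcript alone had 6.28, 7.99, 7.10 and 5.42 TPM in controls 1 to 4 and 5.82, 5.79, 4.49 and 5.39 TPM in endostatin 1 to 4.

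**Figure D1:**
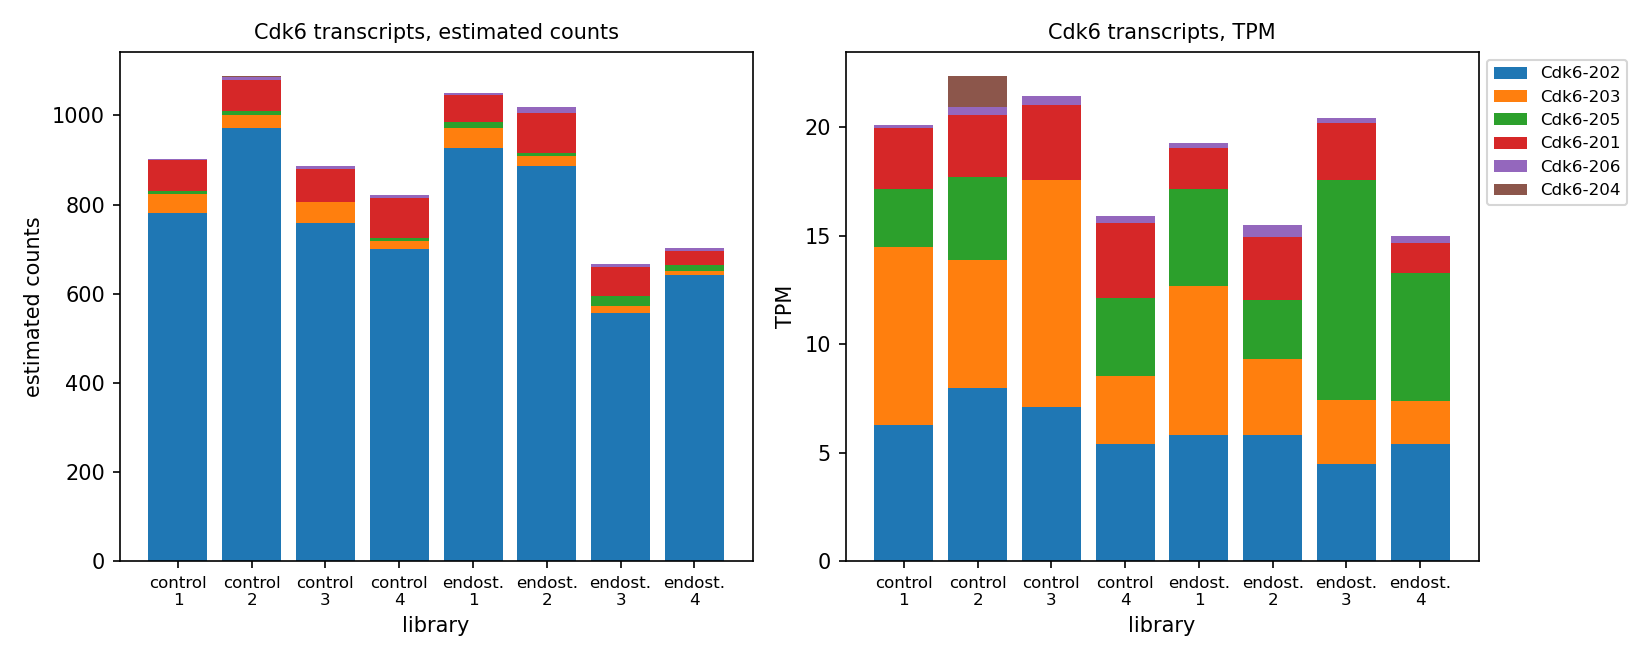
Estimated counts (left axis, reads) and TPM (right axis) of the 6 Cdk6 transcripts, stacked, for each of the 8 libraries. Cdk6-202 fills most of every bar on the left and 22.0% to 37.5% of every bar on the right, where the short Cdk6-205 holds 49.5% in endostatin 3.

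Cdk4 had 47.4, 50.3, 84.3 and 56.2 CPM in controls 1 to 4 and 51.4, 49.8, 54.3 and 58.6 CPM in endostatin 1 to 4. Control 3 was far above the other libraries, which lay close together. Its log2 fold change was -0.13 ± 0.14 (SE; 95% interval -0.46 to 0.19), and it was 0.02 without control 3.

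**Figure D2:**
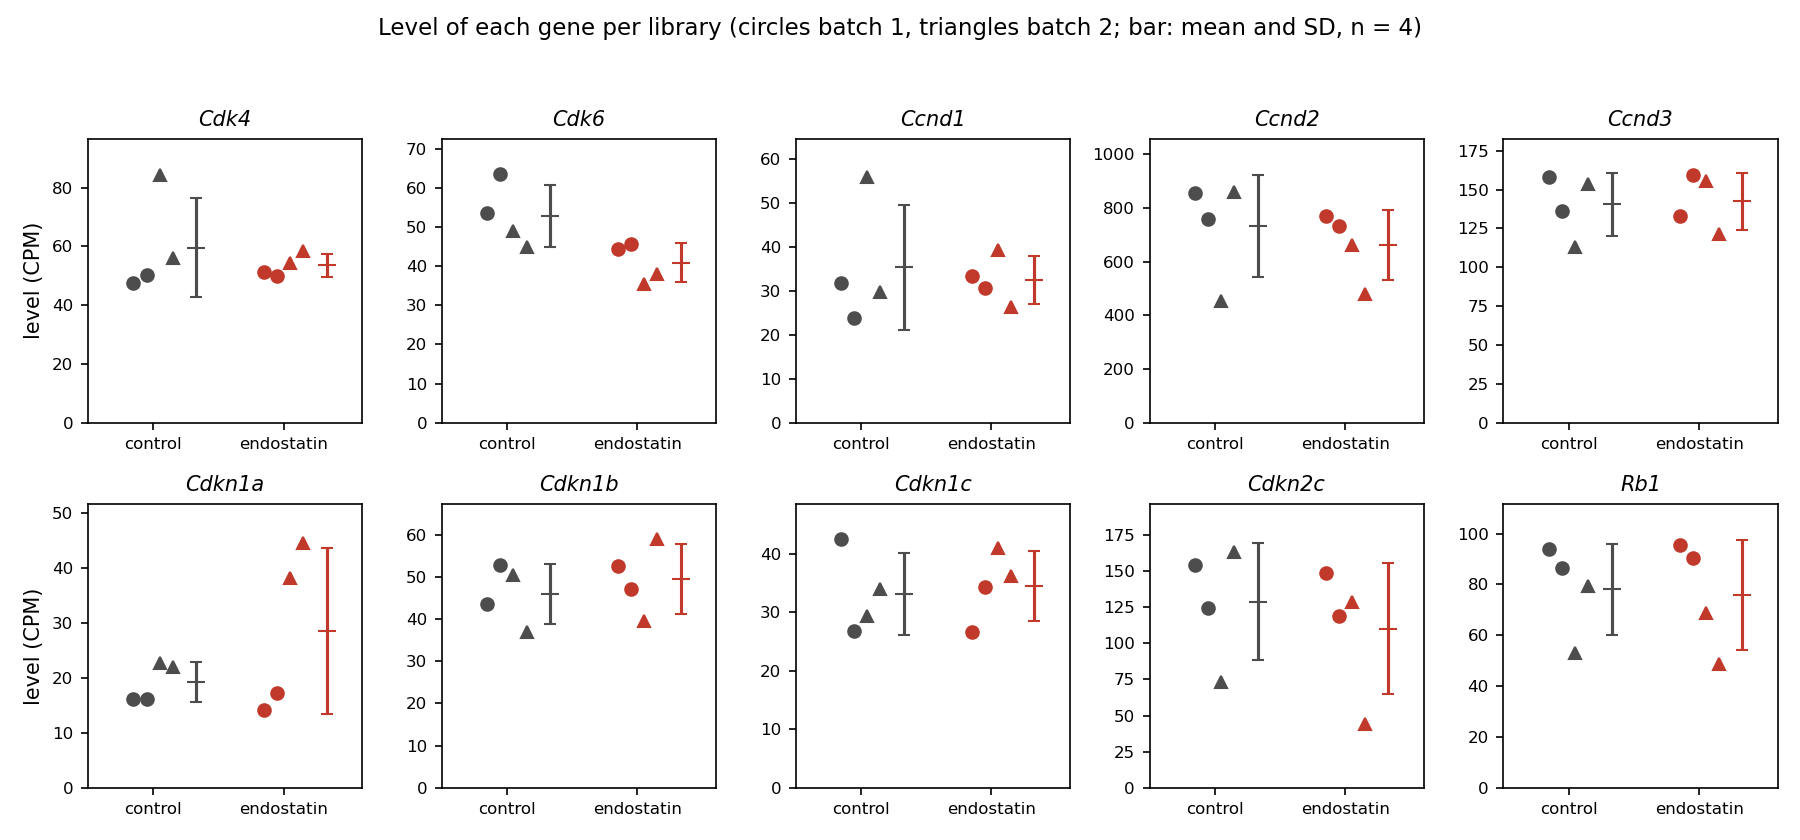
Level in CPM (vertical axis, from 0) of each of the 10 genes in the 4 control (grey) and 4 endostatin (red) libraries, with circles for batch 1, triangles for batch 2 and a bar for the mean and SD. Cdk6 has both red points of a batch below both grey points of that batch, and the 2 red triangles of Cdkn1a, at 38.2 and 44.6 CPM, lie above all other libraries.

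Among the D cyclins, the groups overlapped for every gene and single libraries set the spread. Ccnd1, the cyclin most closely tied to growth factor signalling, had 31.7, 23.7, 55.9 and 29.8 CPM in controls 1 to 4 and 33.4, 30.7, 39.3 and 26.2 CPM in endostatin 1 to 4. Control 3 was again the highest. The log2 fold change of Ccnd1 was -0.09 ± 0.24 (SE; 95% interval -0.66 to 0.47), and it was 0.17 without control 3.

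Ccnd2, the main D cyclin of this tissue, had 855, 759, 455 and 858 CPM in controls 1 to 4 and 772, 733, 661 and 478 CPM in endostatin 1 to 4. The 2 lowest values were those of control 3 and endostatin 4, the libraries with the oviduct and uterus markers; their part in the result was not tested. Its fitted difference was a log2 fold change of -0.15 ± 0.21 (SE; 95% interval -0.65 to 0.34). Without both libraries it was -0.20, and without control 4 it was 0.07.

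Ccnd3, the PPARγ coactivator, had 158, 136, 113 and 154 CPM in controls 1 to 4 and 133, 160, 155 and 121 CPM in endostatin 1 to 4. Its range was the narrowest of the D cyclins relative to its level. Its log2 fold change was 0.02 ± 0.14 (SE; 95% interval -0.30 to 0.34), and -0.01 and 0.05 within batches 1 and 2.

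The inhibitor Cdkn1a, which encodes p21, a p53 target that halts the cycle, was highest in the endostatin libraries of batch 2. It had 16.3, 16.2, 22.8 and 22.0 CPM in controls 1 to 4 and 14.1, 17.3, 38.2 and 44.6 CPM in endostatin 1 to 4. Endostatin 3 and 4 were above all other libraries, while endostatin 1 and 2 lay with their controls. The log2 fold change was 0.43 ± 0.20 (SE; 95% interval -0.03 to 0.89) over both batches, -0.04 ± 0.16 in batch 1 and 0.89 ± 0.16 in batch 2 (SE). These values differed by 0.93, a description only, because the choice of the genes had both batches in view; the batch by treatment term did not pass adjustment over all genes (edgeR, adjusted p = 0.997).

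Other measures moved with Cdkn1a. The 2 libraries with the highest Cdkn1a also had the highest macrophage marker sums, 1788 and 1838 TPM against at most 1229 TPM in the others. They were also highest for red blood cell markers, 9477 and 7734 TPM against at most 7263 TPM. So they were for the hepatocyte sum, mostly Trf, 2842 and 4024 TPM against at most 2780 TPM. Mitochondrially encoded genes gave 2.21% and 2.13% of their counts, the lowest shares. That share was 2.82% and 3.31% in the batch 2 controls and 4.23% to 5.19% in batch 1. The part of these measures in the result was not tested. Without endostatin 4 the log2 fold change of Cdkn1a was 0.29, and without control 3 and endostatin 4 it was 0.24.

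Cdkn1b, the gene of p27, had 43.6, 52.9, 50.3 and 36.9 CPM in controls 1 to 4 and 52.7, 47.0, 39.4 and 59.0 CPM in endostatin 1 to 4, with no ordering by group. Cdkn1c, the imprinted gene of p57, had 42.5, 26.7, 29.3 and 33.9 CPM in controls and 26.6, 34.3, 41.0 and 36.1 CPM in endostatin libraries. Their log2 fold changes were 0.11 ± 0.16 (95% interval -0.26 to 0.48) and 0.05 ± 0.18 (95% interval -0.37 to 0.47), with standard errors. For both genes the groups overlapped over most of their range.

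Cdkn2c, the gene of the INK4 inhibitor p18, was the most variable between libraries by its standard error. It had 154, 124, 73.5 and 163 CPM in controls 1 to 4 and 148, 119, 129 and 44.5 CPM in endostatin 1 to 4. The lowest library of each group was again control 3 or endostatin 4. With endostatin the log2 fold change was -0.25 ± 0.36 (SE; 95% interval -1.08 to 0.57), and 0.01 without endostatin 4.

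Rb1, the target of the kinases, had 93.9, 86.4, 52.9 and 79.3 CPM in controls 1 to 4 and 95.3, 90.6, 68.8 and 48.6 CPM in endostatin 1 to 4. The 2 lowest values were those of endostatin 4 and control 3, and each group reached nearly the same highest level. Its log2 fold change was -0.06 ± 0.16 (SE; 95% interval -0.43 to 0.30). The signs within batches matched for 4 of the 10 genes (Cdk6, Ccnd2, Cdkn1b, Cdkn2c) and for 47.7% of all genes tested.

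**Figure D3:**
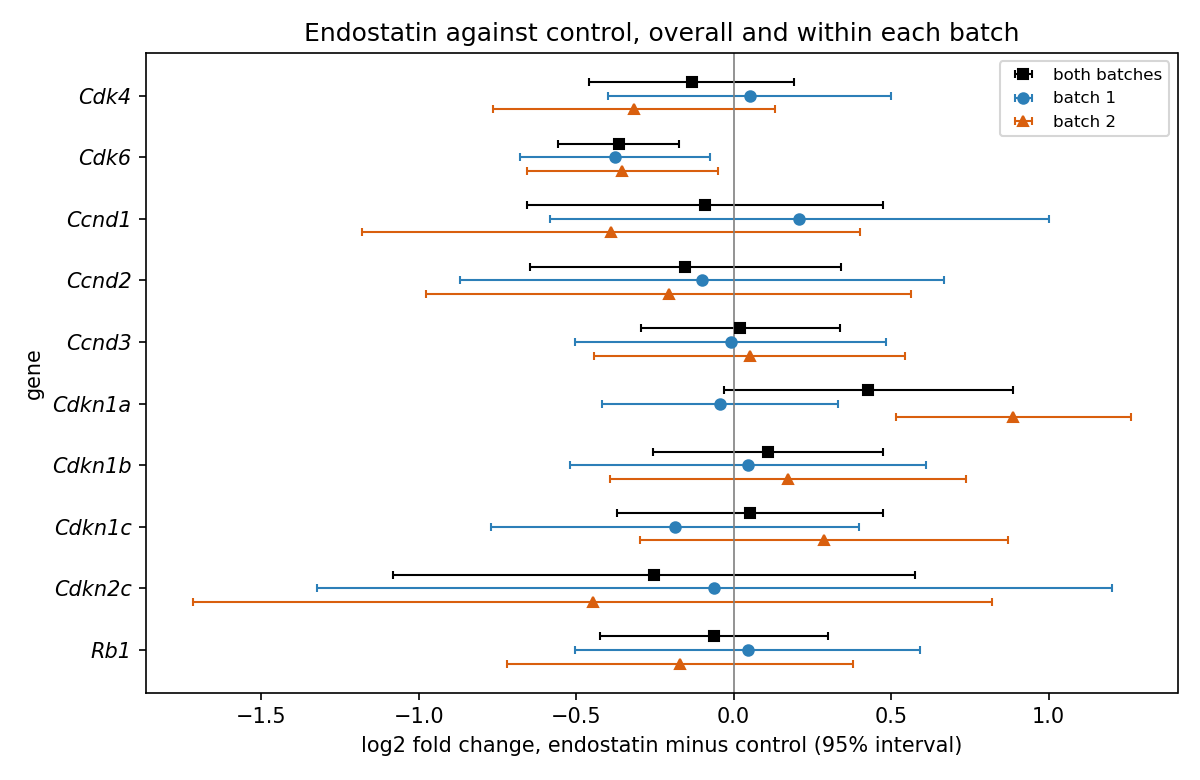
Log2 fold change of endostatin minus control (horizontal axis) with 95% intervals for the 10 genes, over both batches (black squares), in batch 1 (blue circles) and in batch 2 (orange triangles). The values of Cdk6 lie close together, at -0.37, -0.38 and -0.35, and those of Cdkn1a lie apart, at -0.04 in batch 1 and 0.89 in batch 2; the intervals show spread and are no test, since this contrast chose the genes.

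Between the batches, Cdkn1a had the largest fitted difference of the 10 regulators, to which endostatin 3 and 4 added most, and no regulator passed the adjusted threshold in edgeR's quasi-likelihood test. Over all genes 6 of 15184 passed it (0.0395%), and 0 of the 10 regulators. At an unadjusted p under 0.05 there were 4 regulators (Cdk4, Cdk6, Cdkn1a and Rb1) and 9.96% of all genes. The 4 libraries of one batch did not overlap the 4 of the other for 3 regulators (Cdk4, Cdkn1a and Rb1) and for 6.42% of all genes. The batch contrast comes from the same libraries as the treatment contrast, whose values were in view when the genes were chosen.

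Cdkn1a ranged from 14.1 to 17.3 CPM in the batch 1 libraries and from 22.0 to 44.6 CPM in those of batch 2, a log2 difference of 0.93 ± 0.20 (SE; edgeR, adjusted p = 0.413). Under DESeq2 its adjusted p was 0.00567, the one change of a call among the regulators. Among the controls alone the values were 22.8 and 22.0 CPM in batch 2 against 16.3 and 16.2 CPM in batch 1. Among the endostatin libraries they were 38.2 and 44.6 against 14.1 and 17.3 CPM, and the values of both groups had a part in choosing the genes. The adjusted p over its alternatives ran from 0.00567 to 0.815.

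Rb1 ranged from 86.4 to 95.3 CPM in batch 1, above its 48.6 to 79.3 CPM in batch 2, a log2 difference of -0.56 ± 0.16 (SE; edgeR, adjusted p = 0.465). It was -0.30 without control 3 and endostatin 4, both of them batch 2 libraries. The 54.3 to 84.3 CPM of Cdk4 in batch 2 lay above the 47.4 to 51.4 CPM of batch 1, a log2 difference of 0.34 ± 0.14 (SE; edgeR, adjusted p = 0.499). Without control 3 that of Cdk4 was 0.17. Cdk6 was lower in batch 2, by a log2 difference of -0.30 ± 0.08 (SE; edgeR, adjusted p = 0.462), with ranges of 44.4 to 63.5 and 35.6 to 49.0 CPM that overlapped. The treatment and batch differences of Cdk6 were thus of like size.

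Within each gene, the reads divide over several annotated transcripts, and the share of the TPM held by the most abundant one is given here for the same contrast with no test. The share of Cdk6-202 in the TPM of Cdk6 was 33.6% ± 1.88 in controls and 31.4% ± 7.02 with endostatin (SD, n = 4 each), with endostatin 3 at 22.0% and the other libraries at 30.2% to 37.5%. Cdkn1a-201, the most abundant of several coding transcripts of Cdkn1a, held 70.8% ± 6.17 and 74.8% ± 7.42 (SD, n = 4 each). Its own TPM followed the gene: 31.8 and 41.2 TPM in endostatin 3 and 4 against 11.2 to 20.4 TPM elsewhere. For Cdk4 the model with the highest TPM was the retained-intron transcript Cdk4-209 of 468 bases, at 27.9% ± 4.06 and 30.9% ± 3.73 of the TPM (SD, n = 4 each). The coding Cdk4-201, of 2053 bases, took the most reads, 37.2%. Ccnd2-201, with 6330 bases, took 91.9% of the reads of Ccnd2 and held 42.9% ± 5.44 and 42.6% ± 8.24 of its TPM (SD, n = 4 each). For Cdkn1b, Cdkn1c, Cdkn2c and Rb1 the group means of this share differed by 2.55, -3.19, -0.20 and 1.91 percentage points, endostatin minus control. For all 8 genes the difference was smaller than the SD of at least 1 group, and Ccnd1 and Ccnd3 each had a single transcript above 10% of the TPM.

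The wider machinery around these genes was examined in 7 lists with 90 genes, of which 85 were tested. No gene of any list passed the adjusted threshold, and 1 of the 85 had an unadjusted p under 0.05, Irs2, where 3.19% of all genes tested did. Of the 10 other G1/S kinases and cyclins tested, 7 were negative and 3 positive on the log2 scale (median -0.12). Of these, Cdc25a, the phosphatase that activates CDK2, had -0.33 ± 0.26 and Mnat1, a subunit of the CDK-activating kinase, 0.12 ± 0.10 (SE). Of the 3 further CDK inhibitors tested, Cdkn2b, the gene of p15, had 5.44 ± 1.62 CPM in controls and 4.99 ± 1.10 CPM with endostatin (SD, n = 4 each). Cdkn3, which encodes a CDK phosphatase, had below 1 CPM in every library.

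The pocket protein, E2F and DREAM list, the layer that RB controls, had 9 positive and 6 negative log2 fold changes among 15 genes and a median of 0.03. Tfdp1, the dimer partner of E2F proteins, had 45.1 ± 5.49 CPM in controls and 39.2 ± 1.40 CPM with endostatin (SD, n = 4 each), a log2 fold change of -0.20 ± 0.10 (SE). E2f1 itself had 0.16 ± 0.21 (SE). Among 15 regulators of G1 protein levels, 7 were positive and 8 negative. Runx1, which encodes a CDK6-bound transcription factor, had 15.2 ± 2.16 CPM in controls and 18.3 ± 1.42 CPM with endostatin (SD, n = 4 each), a log2 fold change of 0.27 ± 0.12 (SE) that was 0.27 in each batch. Usp28, a deubiquitinase, had -0.29 ± 0.18 (SE).

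Among 13 p53 targets, 5 were positive and 8 negative, with a median of -0.04. Sesn2, a stress-induced inhibitor of mTORC1, had 28.8, 29.5, 43.2 and 32.1 CPM in controls 1 to 4 and 27.1, 23.7, 69.8 and 89.6 CPM in endostatin 1 to 4. As for Cdkn1a, endostatin 3 and 4 were above all other libraries. The within-batch medians of the list were -0.06 and -0.01, with genes of both signs in each batch. Bbc3, which encodes the apoptosis protein PUMA, had -0.26 ± 0.24 (SE), from -0.53 in batch 1 and 0.02 in batch 2. Among members picked out after their values were seen, Trp53inp1 had -0.60 in batch 1 and 1.02 in batch 2, and Sesn1 had -0.24 and 0.44. Trp53inp1 had 148 CPM in endostatin 4 against 34.6 to 58.8 CPM elsewhere. Going the other way between batches, Plk2 had 0.30 and -0.58, Eda2r 0.13 and -0.64, Bax 0.16 and -0.18, and Zmat3 0.07 and -0.20. The signs within batches matched for 5 of the 13 targets.

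Of the 6 adipose partners of D cyclins and CDK4/6, 3 were positive and 3 negative. Irs2, an insulin receptor substrate, had 134, 181, 99.3 and 165 CPM in controls 1 to 4 and 179, 240, 202 and 214 CPM in endostatin 1 to 4. Both endostatin libraries of batch 2 were above both controls of that batch, and endostatin 1 was below control 2. The log2 fold change was 0.53 ± 0.19 (SE; edgeR, adjusted p = 1.00), 0.41 in batch 1 and 0.65 in batch 2. Tsc2, an inhibitor of mTORC1 that CDK4/6 can phosphorylate, had -0.06 ± 0.12 (SE).

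The S phase and mitosis genes, the output of the pathway, reversed their median sign when 1 library, control 3, was left out. Of 23 tested, 20 were negative and 3 positive on the log2 scale (median -0.10), but the batch 1 median was 0.21 and that of batch 2 was -0.52. The counts also moved with the method. With all libraries kept, limma-voom gave 12 negative and 11 positive, and a fit with the replicate number as a block gave 13 and 10. The summed TPM of the list was 153, 166, 345 and 156 in controls 1 to 4 and 181, 181, 205 and 209 in endostatin 1 to 4. Control 3 was far above the rest and the other 3 controls were below all 4 endostatin libraries. Without control 3 the counts were 4 negative and 19 positive, with a median of 0.29, and without control 3 and endostatin 4 they were 2 negative and 21 positive, with a median of 0.34; over all genes the median was then 0.00 in both cases.

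Control 3 was also the library with the highest Cdk4, Ccnd1 and mitotic genes. Top2a, the topoisomerase of dividing cells, had 24.9 TPM there against 2.11 to 6.75 TPM elsewhere, and Mki67, the gene of the Ki-67 antigen, had 10.1 TPM against 1.14 to 4.52 TPM. The oviduct and uterus markers were highest in the same library, and their part in these values was not tested. Mcm7, a subunit of the replicative helicase, had 22.6 ± 2.72 CPM in controls and 25.1 ± 5.48 CPM with endostatin (SD, n = 4 each).

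**Figure D4:**
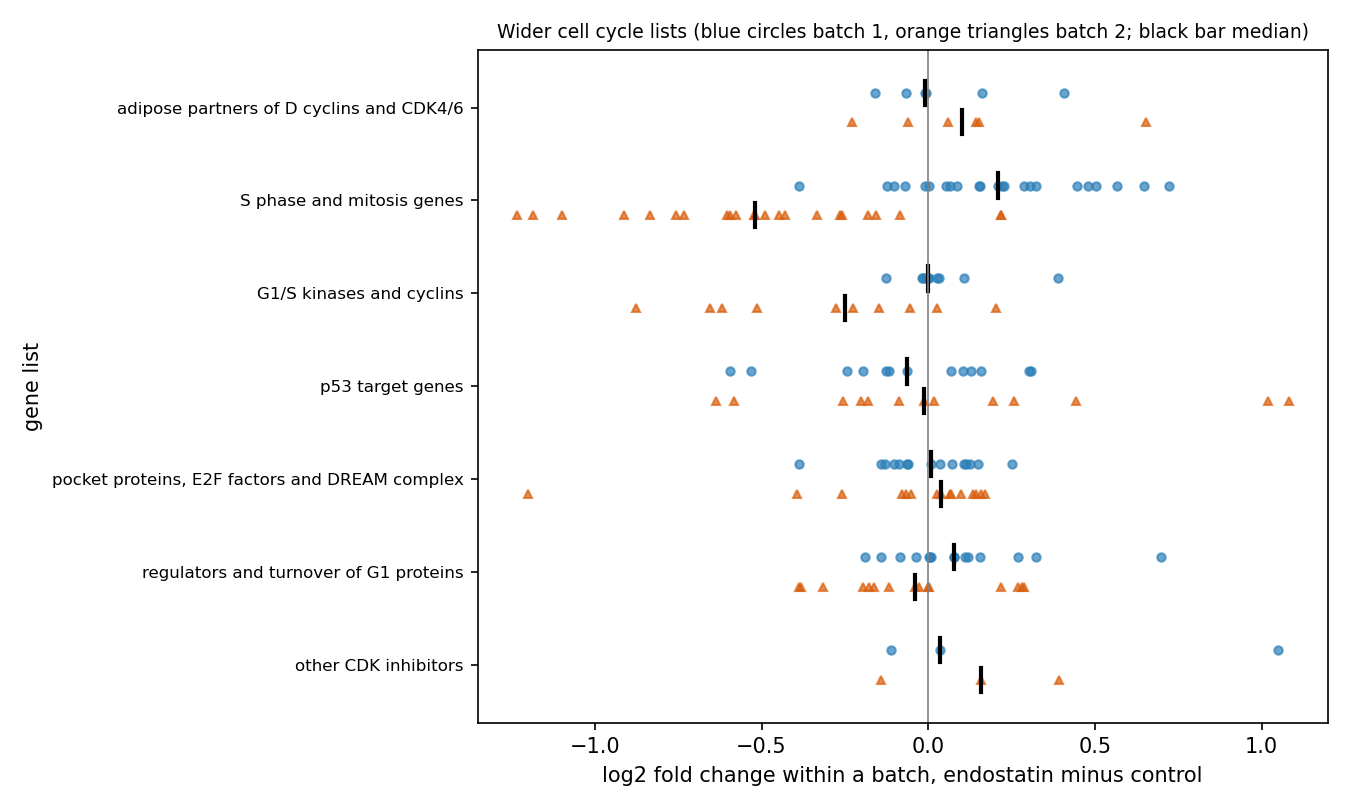
Log2 fold change of endostatin minus control within a batch (horizontal axis) for each tested gene of the 7 lists (vertical axis), with blue circles for batch 1, orange triangles for batch 2 and a black bar for the median. The S phase and mitosis list lies mostly right of 0 in batch 1 (median 0.21) and left of it in batch 2 (median -0.52), the batch that holds control 3.

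The genes closest to Cdk6 in pattern were sought among 9762 protein-coding genes averaging 10 CPM or more, by the root mean square (RMS) difference of log2 CPM, each gene centred on its mean over the 8 libraries. Cdk6 itself varied around its mean by an RMS of 0.247. The nearest were Ogfrl1 (0.109), Spata2 (0.113), Ahctf1 (0.119), Proser1 (0.121) and Fastkd2 (0.124). Their own log2 fold changes with endostatin were -0.33, -0.26, -0.19, -0.16 and -0.35 in that order. None of the 5 is in the lists above, and the nearness is a description over 8 libraries. The search picked genes for their likeness in these same libraries, here and for Ccnd1 and Cdkn1a below. Shared signs and shared highest libraries therefore follow from the search and add no support.

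For Ccnd1, with an RMS of 0.355 around its mean, the nearest were Tuba1c (0.0990), which encodes a tubulin, Fkbp4 (0.120), which encodes a co-chaperone of steroid receptors, and Pdgfa (0.125), which encodes a growth factor. All 3 had their highest level in control 3. For Cdkn1a, with an RMS of 0.567, the nearest were Sesn2 (0.184), Stbd1 (0.194), which encodes a glycogen-binding protein, and Ncf1 (0.194), which encodes a subunit of the phagocyte oxidase. Ncf1 had 41.0 and 37.7 CPM in endostatin 3 and 4 against 15.4 to 20.8 CPM in the other libraries. The sums of macrophage, red blood cell and hepatocyte markers were also highest in endostatin 3 and 4.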

How the data were processed

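Strand-specific libraries were made from total RNA after removal of ribosomal RNA, per the labels' protocols. The deposited values are estimated counts per transcript, which the authors made with Salmon on GRCm39, per the submitters' processing notes. The version of Salmon is not given in the sources used here. Deposited alongside were TPM and effective transcript lengths, as the authors' run of Salmon gave them. Of 115620 transcripts, 113710 (98.35%) matched GENCODE M21, used for gene names, and 1910 were kept as features of their own.

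Gene sums of the estimated counts were rounded to whole numbers, filtered with filterByExpr (15184 genes), scaled by TMM and fitted with edgeR 4.0.16 in R 4.3.3 (quasi-likelihood test, terms for batch and treatment, two-sided, Benjamini-Hochberg threshold 0.05). A model with an interaction gave within-batch values. Intervals are 95%. Effective lengths served as offsets in 1 alternative, and DESeq2 1.42.0 and limma 3.58.1 were others. Splitting reads between transcripts is least certain for short models. The fit was tested on simulated data. It recovered 60% of 100 genes changed by a log2 of 1 and 95% of 100 changed by 2, with 6 false calls. Changes as small as those fitted for the regulators were not simulated.

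The members, gene lists, rule for named genes and alternatives were chosen with earlier results of these data known; lists of cell type markers were chosen likewise. The rule named, beside the members, the gene of each direction with the smallest p in each pathway list, and the genes nearest to Cdk6, Ccnd1 and Cdkn1a. Of the genes so named, 1 is not reported here. The main fit did not treat samples of the same replicate number as pairs, since which animal gave which library is not labelled. The description of endostatin 4 repeats the read file stub of endostatin 3; their counts differ.

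The remaining marker lists, for some of which values are given above, summed, in TPM, to 421 to 556 (endothelial), 2138 to 4459 (fibroblast and progenitor), 11.5 to 26.8 (T, NK and B cell), 250 to 627 (mesothelial), 1631 to 4024 (hepatocyte, mostly the fat-expressed Trf, so that the sum hides the other members), 33.8 to 432 (skeletal muscle) and 4879 to 9477 (red blood cell).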

Additional observations from a re-analysis of the deposited data

How the results depend on the processing

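For endostatin against control, 0 genes passed under 19 of 20 alternatives; DESeq2 gave 4. Of the 10 regulators, Cdk6 and Cdkn1a kept their sign in all 20 alternatives, at -0.45 to -0.22 and 0.24 to 0.59 on the log2 scale, and the other 8 each changed sign in at least 2 of them. The interaction gave 0 genes except under DESeq2, with 28. For batch 2 against batch 1, the 6 genes became 11 with no count filter, 171 with DESeq2, 10 with limma-voom, 3 with protein-coding genes only, 27 without control 3 and endostatin 4, and 0 without control 1 and control 4; leaving out 1 library gave 0 to 18. The cause was not tested.

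Same-numbered samples had correlations of deviations from the group means of 0.21, 0.14, -0.07 and -0.29, with no common sign. These deviations still hold the batch difference, so they cannot settle whether the samples are pairs. With the replicate number as a block, 0 genes passed, the unadjusted count was 307 in place of 485, and the log2 fold change of Cdk6 was -0.36. The count of negative log2 fold changes in the S phase and mitosis list, 20 of 23, was 4 without control 3 and 2 without control 3 and endostatin 4, alternatives chosen after seeing the data. It was 12 with limma-voom and 13 with the replicate block. With 4 libraries a group, the 95% interval of a regulator's log2 fold change was narrowest for Cdk6, at -0.56 to -0.17, and widest for Cdkn2c, at -1.08 to 0.57.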
